A study of Homo sapiens with 11 samples.

Results

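Kinesins are motor proteins that use ATP to move along microtubules or to take microtubule ends apart. The members described here are the protein-coding genes whose symbol is KIF followed by a digit, or is KIFC1, KIFC2 or KIFC3. The rule found 42 of the 61566 genes in the tables, and it used no measured value. By the role each is best known for, 14 were placed among the mitotic kinesins, 15 among the cargo transport kinesins and 13 in a ciliary and other class. CENPE and STARD9 encode kinesins under other symbols and were read beside the members. Poly(A) RNA was sequenced from SK-MEL103, an established human melanoma cell line. The cells had been kept for 6 days with tozasertib at 0.5 uM (n = 3), etoposide at 0.25 uM (n = 4) or the vehicle DMSO (n = 4), with medium and drugs renewed on day 3. Tozasertib inhibits the Aurora kinases, which run spindle assembly and cytokinesis, and etoposide is a topoisomerase II poison that causes DNA breaks. The study used both drugs to drive this line into senescence, a lasting arrest of the cell cycle. Tozasertib samples carry the numbers 1, 2 and 4, and a sample numbered 3 was not analysed here. No label says that same-group samples were separate cultures, so that the tests measure the spread between these samples of 1 line, which may be technical.

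Mitotic kinesins build the bipolar spindle, move chromosomes and finish cytokinesis, and most are made late in the cell cycle, in G2 and M phase. Transport kinesins carry vesicles, endosomes, mitochondria and other cargo, and their genes are used in resting and dividing cells alike. Many G2 and M phase genes share a promoter element called CHR (cell cycle genes homology region). CHR is bound by the DREAM complex, which holds these genes down in resting cells, and it often lies a short way downstream of CCAAT boxes, which bind NF-Y.

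In the RefSeq promoter table (GRCh38.p14, 250 bases before to 50 after each annotated start), 34 of the 42 kinesins had at least 1 promoter. For CHR, the letters TTTGAA were searched on both strands, so that a match on the opposite strand reads TTCAAA. The other motif, CCAAT, was searched on both strands too, and no CHR match in a kinesin promoter overlapped a match of it. CHR stood in 10 of 15 mitotic kinesin promoters (66.7%), against 1 of 16 transport promoters (6.25%), 0 of 12 promoters of the other class and 15.2% of all 35116 promoters. CCAAT stood in 73.3% of the mitotic, 31.3% of the transport and 34.6% of all promoters. Both motifs stood together in 60.0% of the mitotic, 6.25% of the transport and 5.90% of all promoters. The 10 mitotic genes with a CHR were KIF4A, KIF4B, KIF11, KIF14, KIF15, KIF18A, KIF18B, KIF20B, KIF23 and KIFC1. KIF2B, KIF2C, KIF20A and KIF22 had none of these letters in the window. A match is a description of the letters and not a measured site.

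Stretches of 5 promoters whose CHR lies wholly before the start show how close the element sits to the start of mitotic kinesin genes, and 2 stretches from transport kinesins stand beside them. Capitals mark the CHR letters, and each sequence is printed 5′ to 3′ on the strand of its gene. The stretches of KIF15 and KIF23 overlap an exon of another GENCODE start and are therefore shorter. The KIF11, KIF18A, KIF23 and KIF4A stretches also hold a CCAAT match, left in lower case.
KIF11 (chr10:92593070-92593129, plus strand): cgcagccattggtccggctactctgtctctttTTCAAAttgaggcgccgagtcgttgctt
KIF15 (chr3:44761747-44761776, plus strand): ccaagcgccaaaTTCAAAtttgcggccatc
KIF18A (chr11:28108157-28108216, minus strand): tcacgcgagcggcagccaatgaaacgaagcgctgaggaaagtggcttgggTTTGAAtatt
KIF23 (chr15:69414282-69414311, plus strand): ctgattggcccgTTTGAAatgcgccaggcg
KIF4A (chrX:70290040-70290099, plus strand): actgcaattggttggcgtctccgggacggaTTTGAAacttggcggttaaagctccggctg
KIF5B (chr10:32056536-32056595, minus strand): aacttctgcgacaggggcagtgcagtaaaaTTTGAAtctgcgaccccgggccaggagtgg
KIF13A (chr6:17987636-17987695, minus strand): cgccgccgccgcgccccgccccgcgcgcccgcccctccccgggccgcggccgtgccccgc

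The first CHR base lay at position -28 in KIF11, -35 in KIF15, -10 in KIF18A, -55 in KIF23 and -34 in KIF4A, counted back from -1, the last base before the start. In KIF14, KIF18B, KIF4B and KIFC1 it lay at +2, +3, +4 and +5. The lone transport match, in KIF5B, began at -140, well upstream of those 9. The KIF13A stretch, the 60 bases before its start, holds neither motif.

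**Figure D1:**
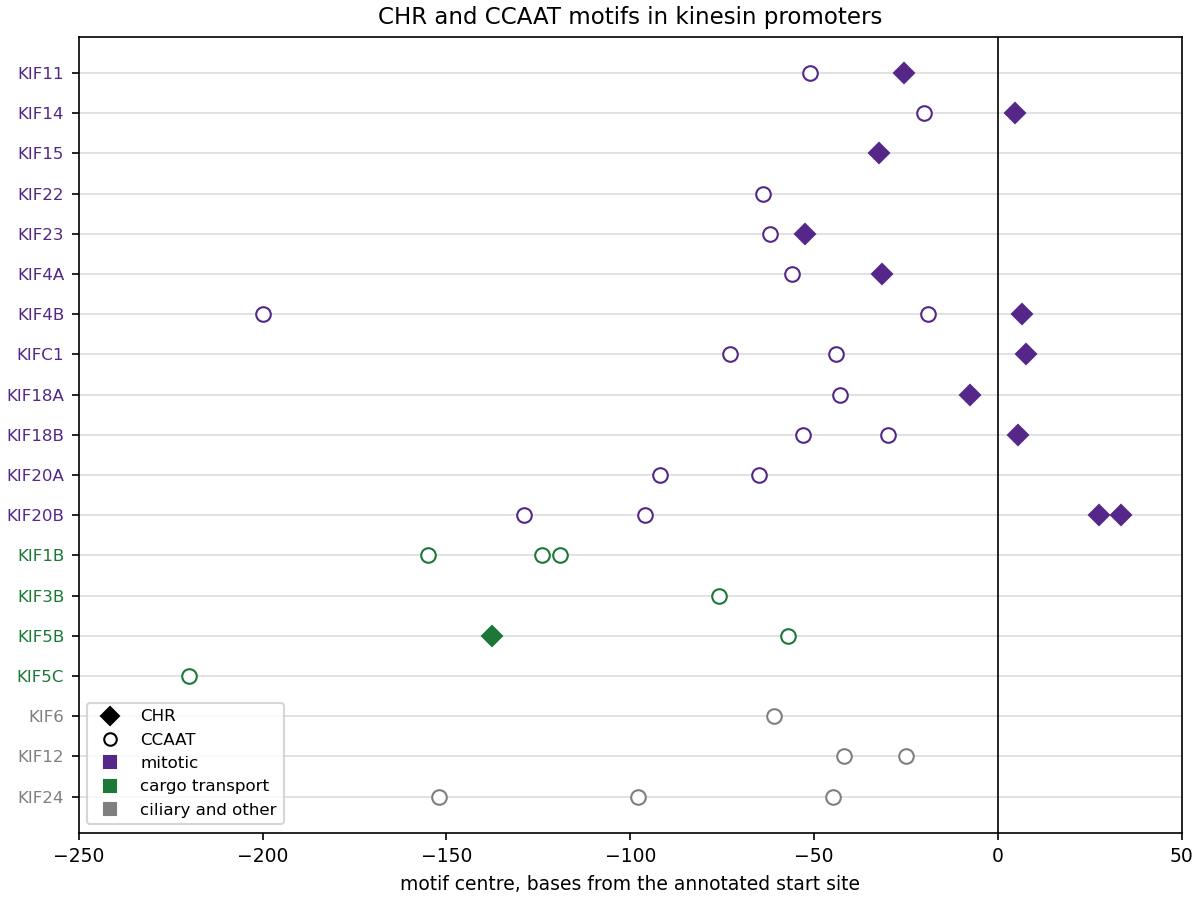
Position of each CHR (filled diamond) and CCAAT (open circle) motif in bases from the annotated start site, for every kinesin with at least 1 match in its RefSeq promoters. CHR matches in mitotic genes begin between 55 bases before and 31 bases after the start, and KIF5B carries the only CHR match among transport genes, at -140.

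Reads were those that the authors assigned to transcripts with Salmon, summed to genes here and rounded. The samples held 27882689 to 56534763 reads, and 36 of the 42 kinesins passed the filter on low counts (12 mitotic, 14 transport, 10 other). Levels below are CPM, the reads of a gene relative to the reads of its library, scaled with TMM, which corrects for differences in RNA composition, and log2 fold changes come from edgeR's quasi-likelihood test over 17039 genes in all 11 samples. A gene was called at a Benjamini-Hochberg adjusted p under 0.05 over all genes tested. Calls are those of this main fit unless another setting is named. In RNA from whole cultures, a lower level in each cell and fewer cells using a gene cannot be told apart. The melanoma line's transcription factor SOX10 stood at 376 to 383 CPM with tozasertib, 317 to 336 with etoposide and 482 to 541 with DMSO, while the pigment cell gene MLANA was at 0 reads throughout. MITF, S100B, PMEL and DCT, from the same list of 7 melanoma markers, had higher means with each drug than with DMSO. MITF was at 9.25, 9.44 and 7.68 CPM and S100B at 3.31, 2.18 and 1.17 CPM (tozasertib, etoposide and DMSO). PMEL was at 3.85, 0.40 and 0.33 CPM and DCT at 0.32, 0.12 and 0.09 CPM, in the same order, and TYR at 0.06 CPM or less. Of 4 immune cell markers, PTPRC, CD3E and CD14 were at 0.46 CPM or less in every sample, and the list's sum of 43.1 to 48.1 CPM with tozasertib, 34.7 to 42.2 CPM with etoposide and 55.65 to 68.1 CPM with DMSO was nearly all CD68, a lysosomal protein. A list of keratinocyte keratins summed to at most 3.41 CPM. DMSO samples 1 and 4 stood apart, in that their deviations from the DMSO mean followed transcript length (Spearman's rho across genes of -0.48 and 0.40). The deviations of the other 9 from their own group means gave -0.08 to 0.22. As deviations within a group balance out, these values are not independent. Some counts and calls are therefore given without them as well. The summed TPM and the mitotic share were not computed with both left out.

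Mitotic kinesins fell as a class under both drugs. The classes were chosen with earlier results of these data known, so the counts by class are a description. KIF2A, which also works at spindle poles, was placed in the other class and had a log2 fold change of -0.33 with each drug. With tozasertib, 12 of 12 tested were called lower than with DMSO, where 29.4% of all genes were called lower, and none was higher, where 29.9% of all genes were. With etoposide, 12 of 12 were again lower, against 30.7% of all genes, and none was higher, against 27.7%. The median mitotic log2 fold change was -2.70 with tozasertib (6.52-fold lower) and -1.93 with etoposide (3.80-fold lower), while the median of all genes was 0.02 and -0.01. In each of the 12 genes the 3 tozasertib samples and the 4 etoposide samples all lay below the 4 DMSO samples. These counts stayed at 12 without DMSO samples 1 and 4.

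**Figure D2:**
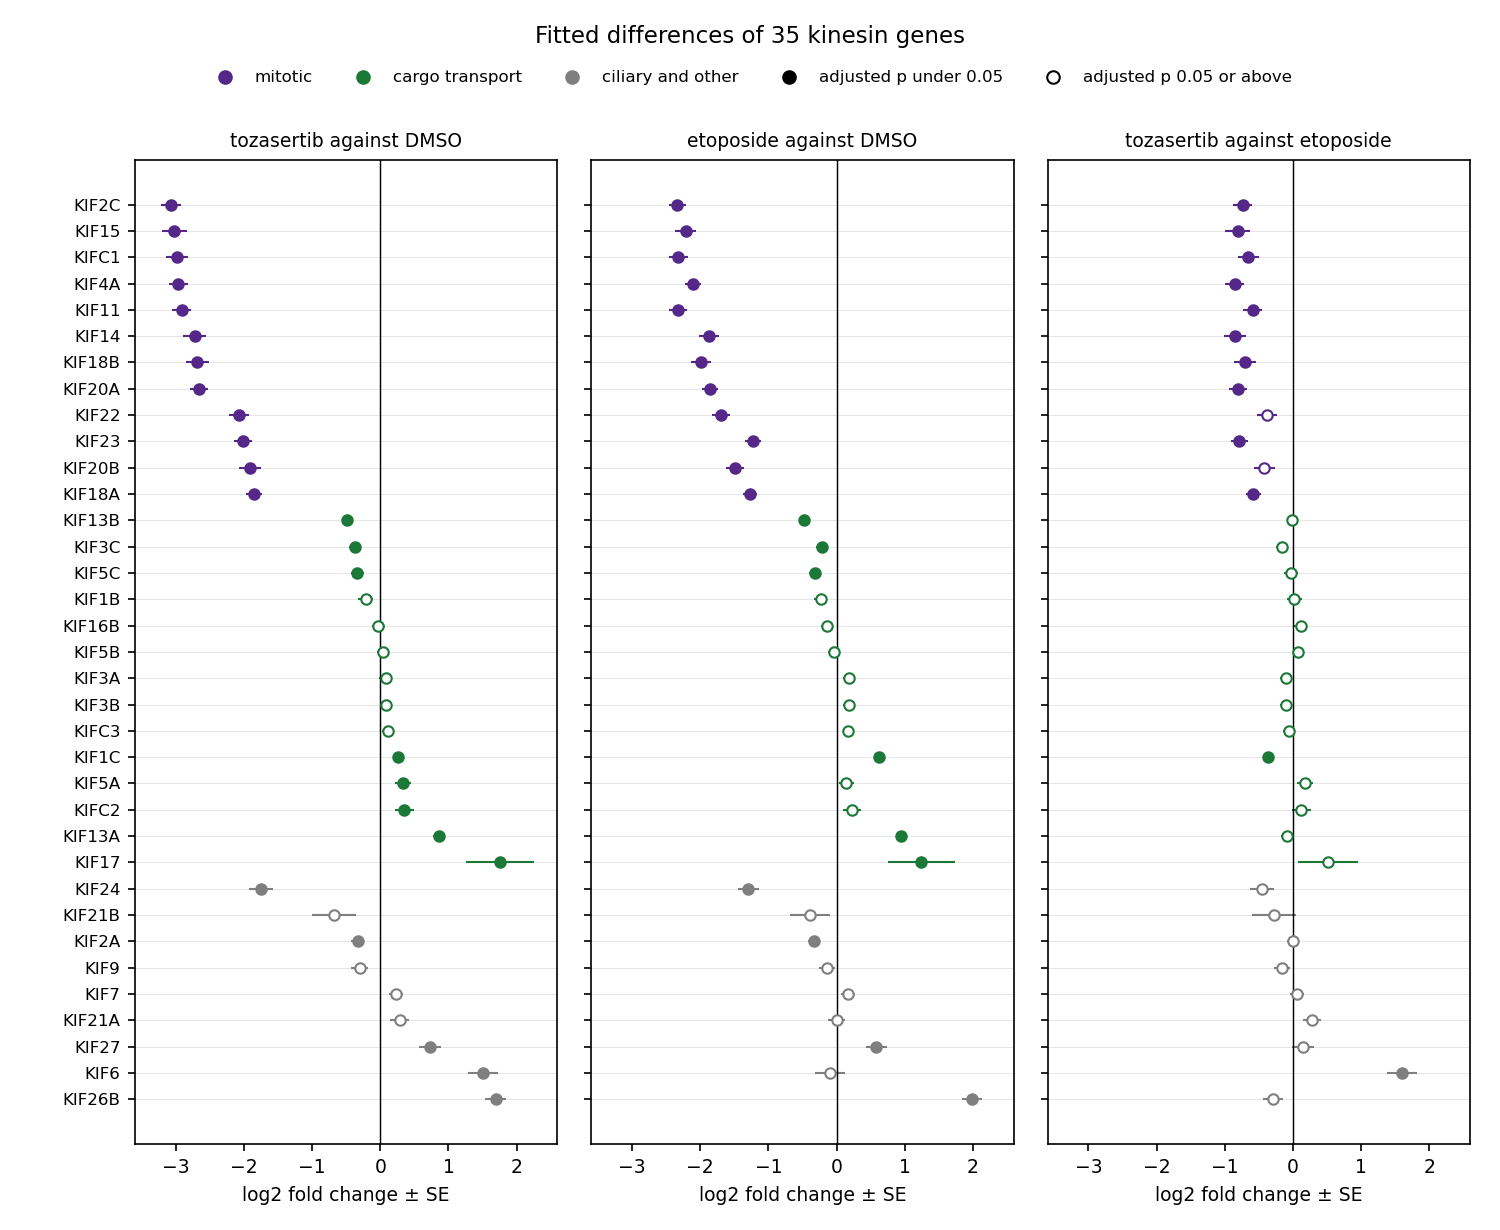
Log2 fold change with its standard error for 35 tested kinesins (rows) in tozasertib against DMSO, etoposide against DMSO and tozasertib against etoposide. Filled points passed an adjusted p of 0.05. Mitotic kinesins lie between -3.07 and -1.85 with tozasertib and between -2.34 and -1.23 with etoposide, and transport kinesins lie on both sides of 0. KIF26A is left out because it had 0 reads with DMSO.

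KIF2C (MCAK), a depolymerase that frees wrongly attached kinetochores and is a substrate of Aurora B, had the largest fold change of the class with both drugs. The gene lies at chr1:44739818-44767767 (GRCh38, GENCODE v44). KIF2C stood at 11.1, 12.2 and 9.33 CPM with tozasertib, at 20.1, 20.9, 16.6 and 14.4 CPM with etoposide and at 101, 95.8, 88.7 and 78.7 CPM with DMSO. The 3 groups did not overlap, and tozasertib was the lowest. With tozasertib KIF2C was 8.41-fold lower (log2 -3.07 ± 0.14, SE, adjusted p = 1.4e-09), and with etoposide 5.06-fold lower (-2.34 ± 0.12, adjusted p = 4.0e-09).

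KIF11 (Eg5) slides antiparallel microtubules apart to make the spindle bipolar. It stood at 20.1, 19.8 and 14.8 CPM with tozasertib, at 30.8, 32.0, 24.3 and 22.5 CPM with etoposide and at 120.2, 145, 144 and 142 CPM with DMSO. KIF11 was 7.55-fold lower with tozasertib (log2 -2.92 ± 0.15, adjusted p = 2.6e-09) and 5.02-fold lower with etoposide (-2.33 ± 0.13, adjusted p = 5.4e-09). DMSO replicate 1 was the low sample of its group, and it still lay far above every drug-treated sample. KIF15, which can stand in for KIF11 in keeping the spindle bipolar, was 8.12-fold lower with tozasertib and 4.63-fold lower with etoposide. KIFC1 (HSET), a minus-end motor that focuses spindle poles and opposes KIF11, stood at 18.3, 17.8 and 12.7 CPM with tozasertib, 28.7, 30.3, 23.7 and 19.5 CPM with etoposide and 138, 133, 125 and 116 CPM with DMSO. KIFC1 was 7.88-fold and 5.01-fold lower with tozasertib and with etoposide (adjusted p = 4.9e-09 and 1.2e-08). So both the motor that pushes the poles apart and its opponent fell, by similar folds.

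KIF4A, a chromokinesin that shortens the central spindle together with PRC1, stood at 9.35, 9.02 and 7.18 CPM with tozasertib. The etoposide samples held 16.2, 18.7, 14.8 and 12.1 CPM of KIF4A, and the DMSO samples 62.2, 74.0, 68.0 and 62.8 CPM. Its log2 fold change was -2.97 ± 0.14 with tozasertib (adjusted p = 1.5e-09) and -2.11 ± 0.12 with etoposide (adjusted p = 7.8e-09). Its near-copy KIF4B drew only 14, 3 and 9 reads over the tozasertib, etoposide and DMSO samples and was not tested, and reads of the pair cannot be fully told apart. KIF20A (MKLP2), which brings Aurora B to the central spindle, stood at 23.0, 23.4 and 18.1 CPM with tozasertib, 40.8, 45.0, 33.7 and 30.1 CPM with etoposide and 131, 147, 138 and 128 CPM with DMSO. That is 6.32-fold lower with tozasertib (adjusted p = 3.3e-09) and 3.63-fold lower with etoposide (adjusted p = 2.2e-08). KIF20A overlaps CDC23 and BRD8 on the opposite strand and KIF4A overlaps PDZD11, and whether Salmon was told the strand is not given in the sources used here.

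The other cytokinesis kinesins had smaller fold changes than KIF2C, KIF11 and KIFC1. KIF23 (MKLP1), the motor subunit of the centralspindlin complex, held 22.2 to 27.1 CPM with tozasertib, 33.6 to 49.5 CPM with etoposide and 88.5 to 114 CPM with DMSO, or 4.04-fold and 2.34-fold lower with tozasertib and with etoposide. KIF14, which recruits citron kinase to the midbody, had log2 fold changes of -2.72 ± 0.17 with tozasertib and -1.87 ± 0.15 with etoposide. KIF20B, a late cytokinesis motor, had -1.91 ± 0.16 with tozasertib and -1.49 ± 0.14 with etoposide. Among the chromosome and microtubule tip motors, KIF18B, which trims astral microtubules, had -2.69 ± 0.17 with tozasertib and -1.98 ± 0.15 with etoposide. KIF22 (Kid), which pushes chromosome arms from the poles, had -2.07 ± 0.15 with tozasertib and -1.69 ± 0.13 with etoposide. KIF18A, which dampens chromosome movements at the spindle equator, fell the least with tozasertib, to 7.16 to 7.80 CPM, against 9.31 to 12.5 CPM with etoposide and 24.0 to 30.3 CPM with DMSO. KIF2B, the remaining mitotic member, had 0 reads in all 11 samples.

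Presence of the CHR letters TTTGAA did not sort the folds within the class. With TTTAAA and TTCGAA also taken as CHR, 13 of 14 mitotic genes held a match, so that the wider motif leaves almost no genes without one to compare. KIF2C, with none of the letters, had the lowest fold change with tozasertib, KIF18A, with a match at -10, the highest, and KIF20A and KIF22, also without, lay between them.

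**Figure D3:**
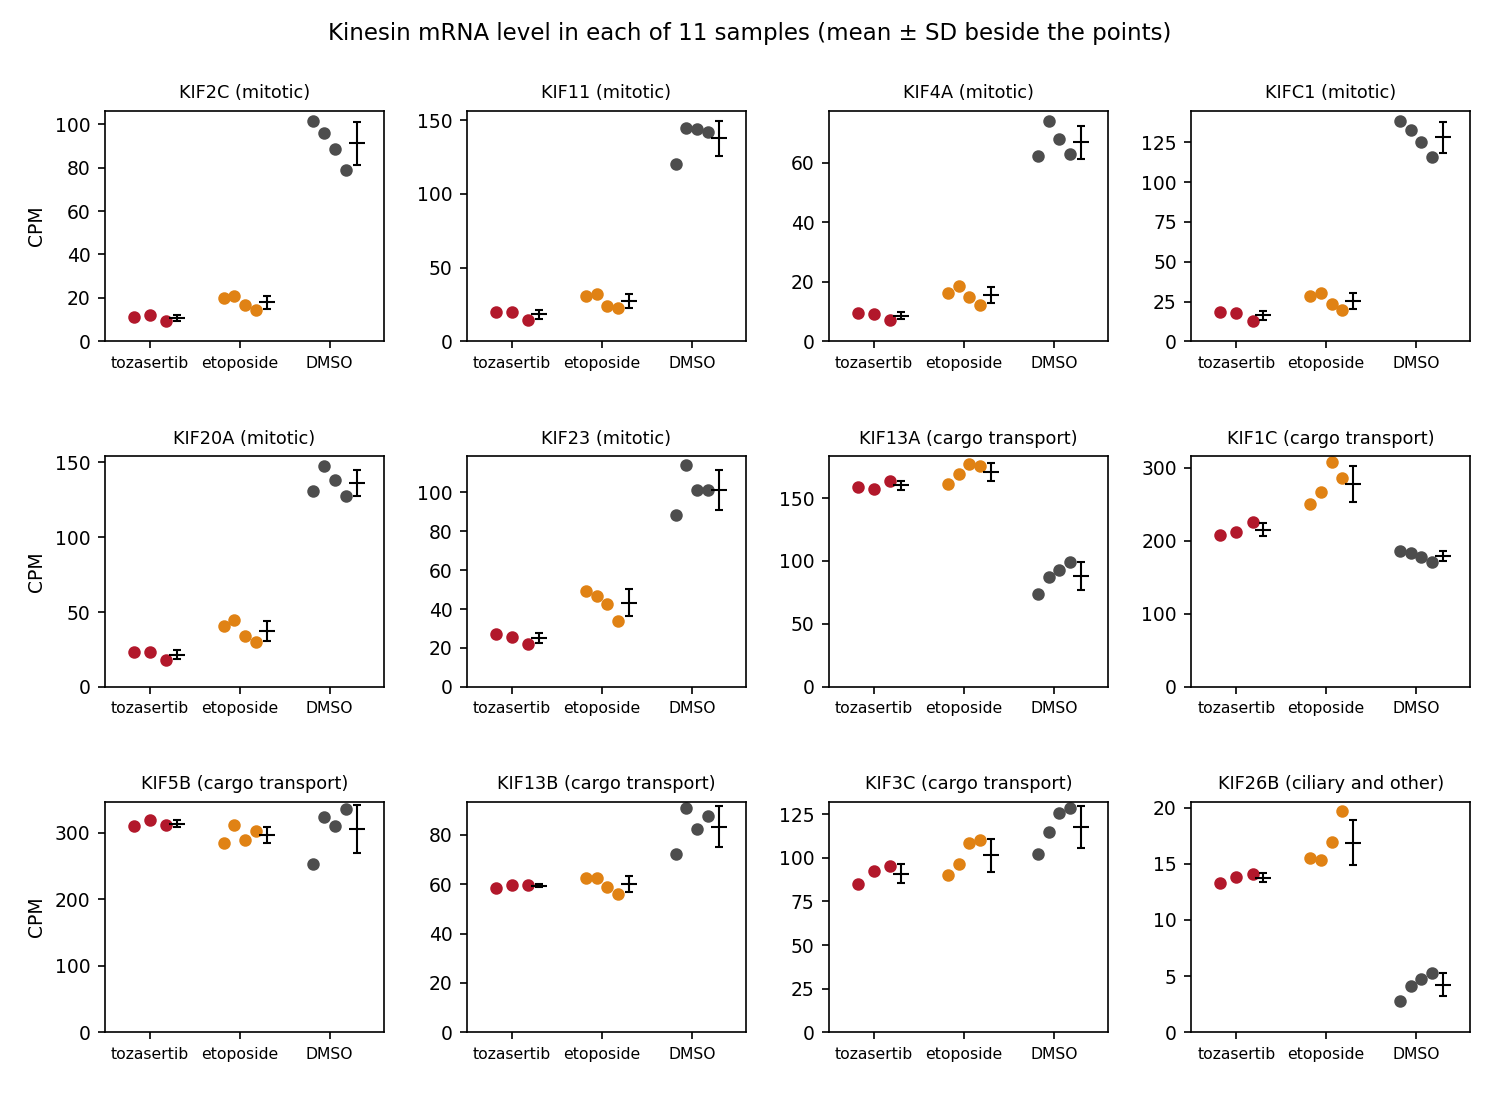
CPM of 6 mitotic, 5 transport and 1 other kinesin in each of the 11 samples (points) with the group mean and SD beside them, in replicate number order within a group. The mitotic panels show no drug-treated sample near the DMSO range, KIF13A and KIF1C lie above DMSO, and KIF5B overlaps it.

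Tozasertib lowered mitotic kinesins further than etoposide. Of 12 tested, 10 were called lower with tozasertib than with etoposide, where 5.45% of all genes were called lower, and none was higher, where 5.67% of all genes were. The median log2 fold change between the drugs was -0.72, and the median of all genes was 0.01. KIF4A (-0.86 ± 0.14, adjusted p = 0.0012), KIF23 (-0.78 ± 0.13, adjusted p = 0.0014) and KIF20A (-0.80 ± 0.13, adjusted p = 0.0015) had the smallest adjusted p-values. KIF22 (-0.38 ± 0.14, adjusted p = 0.118) and KIF20B (-0.42 ± 0.15, adjusted p = 0.104) were not called. Replicate 4 was the lowest of its group in 12 of 12 mitotic kinesins with tozasertib and in 12 of 12 with etoposide, and replicate 1 (7 of 12) or replicate 4 (5 of 12) was lowest with DMSO. Without tozasertib replicate 4, KIF11, KIF18B and KIFC1 were no longer called between the drugs (adjusted p = 0.064, 0.063 and 0.060), and 7 of 12 were called. KIF18B was also lost without tozasertib replicate 2 (adjusted p = 0.0502), and KIF20B was called without DMSO replicate 1 (adjusted p = 0.024). As the doses were chosen per drug and 1 dose of each was used, this compares these 2 treatments and not the drugs at matched strength.

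Cargo transport kinesins did not move as a class. With tozasertib, 5 of 14 tested were called higher than with DMSO and 3 lower, with a median change of 0.08 (log2), and with etoposide 3 were higher and 3 lower, with a median of 0.15. KIF17, counted among the higher with each drug, passed the filter on low counts only through drug-treated samples. Of all genes, 29.9% were called higher and 29.4% lower with tozasertib, and 27.7% higher and 30.7% lower with etoposide. Between the drugs 1 transport kinesin was called, KIF1C, and it was lower with tozasertib. The lowest transport fold change, -0.49 for KIF13B with tozasertib, was above the highest mitotic one, -1.85 for KIF18A. Without DMSO samples 1 and 4, the etoposide count of lower transport kinesins became 5, as KIF1B (-0.26, adjusted p = 0.0015) and KIF16B (-0.22, adjusted p = 0.012) joined. Without DMSO replicate 1 alone, KIF1B was called lower with tozasertib (-0.32, adjusted p = 0.0012), and with etoposide KIF1B (-0.34), KIF16B (-0.24) and KIF5B (-0.13, adjusted p = 0.033) were called lower and KIFC3 higher (0.21, adjusted p = 0.025).

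KIF13A, which draws out recycling endosomes and in pigment cells sends cargo to melanosomes, had the largest rise among the abundant members. The gene lies at chr6:17759183-17987635 (GRCh38, GENCODE v44). KIF13A stood at 159, 158 and 164 CPM with tozasertib, at 161, 169, 177 and 175 CPM with etoposide and at 73.7, 87.1, 93.0 and 99.6 CPM with DMSO. Every drug-treated sample lay above every DMSO sample. The rise was 1.81-fold with tozasertib (log2 0.86 ± 0.08, adjusted p = 1.5e-06) and 1.93-fold with etoposide (0.95 ± 0.08, adjusted p = 2.8e-07), and the drugs did not differ by the test (-0.09, 95% interval -0.29 to 0.10). Its main transcript, KIF13A-203, held 23.2 to 26.7 TPM with tozasertib, 21.1 to 28.0 TPM with etoposide and 5.29 to 13.5 TPM with DMSO, whereas KIF13A-206 held 5.51 to 9.24, 6.82 to 12.4 and 5.56 to 10.5 TPM in the same order. TPM, which the authors' tables give, is a level per transcript length scaled to the same total in every sample. Its relative KIF13B, which carries the scaffold protein DLG1 among other cargo, went the other way. KIF13B stood at 58.6, 59.7 and 59.7 CPM with tozasertib, 62.7, 62.4, 58.8 and 55.9 CPM with etoposide and 72.4, 91.1, 82.2 and 87.9 CPM with DMSO. Its log2 fold change was -0.49 ± 0.08 with tozasertib (adjusted p = 0.00011) and -0.48 ± 0.07 with etoposide (adjusted p = 6.8e-05).

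KIF1C, a fast motor for dense core vesicles and integrins, was the only transport kinesin called between the drugs. It stood at 208, 212 and 225 CPM with tozasertib, 249.9, 267, 309 and 285 CPM with etoposide and 186, 184, 178 and 170.4 CPM with DMSO, with no overlap between any 2 groups. KIF1C was 1.20-fold higher with tozasertib (log2 0.26 ± 0.07, adjusted p = 0.0065) and 1.55-fold higher with etoposide (0.63 ± 0.07, adjusted p = 2.7e-06), and tozasertib lay below etoposide by -0.37 ± 0.07 (adjusted p = 0.0048). KIF1B, a carrier of mitochondria and lysosomes, had log2 fold changes of -0.21 ± 0.11 (adjusted p = 0.109) with tozasertib and -0.23 ± 0.10 (adjusted p = 0.062) with etoposide and was not called in the main fit. With no filter, KIF1B was called lower with tozasertib and with etoposide (adjusted p = 0.042 and 0.016). KIF1A, the neuronal carrier of synaptic vesicle precursors, was too low for the filter, at 41 reads over the 3 tozasertib samples, 4 over the 4 etoposide samples and 3 over the 4 DMSO samples. Per library size, KIF1A was 13.1 times as high with tozasertib as with DMSO (95% counting interval 4.18 to 66.2) and 11.3 times as high as with etoposide (4.07 to 43.2). KIF1A entered the test only under settings that changed which genes passed the filter, and there it was called higher with tozasertib: with no filter (edgeR adjusted p = 0.00060 against DMSO and 0.0041 against etoposide), without tozasertib replicate 4 (0.0028 and 0.020), without DMSO samples 1 and 4 (0.010 and 0.0056) and with only tozasertib and etoposide fitted (0.0036). Where a filter was kept, KIF1A got in only through its tozasertib reads, so those adjusted p-values add no separate support. A list of 4 neuron markers, 2 of them tested, summed to 66.1 to 68.6 CPM with tozasertib, 55.96 to 65.0 CPM with etoposide and 44.4 to 64.4 CPM with DMSO. Nearly all of it was SYT1, while STMN2 was at 0 throughout. SNAP25, from the same list, went the other way, with means of 1.46, 2.26 and 4.51 CPM in the same order. The part of that list in the KIF1A result was not tested.

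KIF5B, the ubiquitous heavy chain of kinesin-1, was the most abundant kinesin per length in all 3 groups, at 114 ± 1.81 TPM with tozasertib, 103 ± 4.21 TPM with etoposide and 94.4 ± 21.2 TPM with DMSO (SD, n = 3, 4 and 4). Its log2 fold change was 0.04 ± 0.08 with tozasertib and -0.04 ± 0.08 with etoposide, neither called (adjusted p = 0.71 and 0.65). KIF5C, a neuron-enriched heavy chain, stood at 49.5, 53.8 and 54.9 CPM with tozasertib, 50.6, 53.8, 52.2 and 57.9 CPM with etoposide and 53.7, 69.1, 67.4 and 76.0 CPM with DMSO. DMSO replicate 1 overlapped both drug groups, and the other 3 DMSO samples lay above them. KIF5C fell by 0.34 ± 0.10 on the log2 scale with tozasertib (adjusted p = 0.0100) and by 0.31 ± 0.09 with etoposide (adjusted p = 0.0098), and the tozasertib call was lost with scaling by library size alone (adjusted p = 0.072). KIF5A, the other neuronal heavy chain, was called higher with tozasertib (0.33 ± 0.12, adjusted p = 0.029) and not with etoposide (0.14 ± 0.11, adjusted p = 0.29). With counts scaled for transcript length, the KIF5A value with tozasertib was 0.08 (adjusted p = 0.59), and the call was also lost without tozasertib replicate 1 or 2 (adjusted p = 0.081 and 0.085) and without DMSO samples 1 and 4 (0.24, adjusted p = 0.082). KIF5A overlaps DCTN2 on the opposite strand, a dynactin gene at 169 TPM that fell by 0.58 on the log2 scale with tozasertib, against 14.6 TPM for KIF5A.

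Kinesin-2 motors drive transport into cilia and of other cargo. Of these, KIF3A and KIF3B were not called, KIF3C was lower and KIF17 higher. KIF3A and KIF3B, which pair with each other and with KIFAP3, had log2 fold changes of 0.08 ± 0.09 and 0.08 ± 0.09 with tozasertib and of 0.18 ± 0.09 and 0.18 ± 0.08 with etoposide, none of them called in the main fit. DESeq2's Wald test called KIF3A and KIF3B higher with etoposide (adjusted p = 0.045 and 0.041). Without etoposide replicate 1 or DMSO replicate 4, KIF3B was called higher with etoposide (adjusted p = 0.027 and 0.011). KIF3C, the alternative partner of KIF3A, stood at 84.9, 92.2 and 95.5 CPM with tozasertib, 90.0, 96.5, 109 and 110.1 CPM with etoposide and 102, 115, 126 and 128 CPM with DMSO. It was lower by -0.37 ± 0.09 with tozasertib (adjusted p = 0.0035) and by -0.22 ± 0.08 with etoposide (adjusted p = 0.043), and the etoposide and DMSO samples overlapped. The etoposide call of KIF3C was lost without any 1 of etoposide replicates 1 and 2, tozasertib replicates 1, 2 and 4 and DMSO replicates 2, 3 and 4 (adjusted p = 0.050 to 0.13). It was also lost with all samples under DESeq2's size factors, DESeq2's Wald test, library size alone, only the 2 groups and length-scaled counts (0.066 to 0.14). KIF17, a homodimeric motor of neurons and cilia, was near the lower limit, with 51, 41 and 15 reads over the tozasertib, etoposide and DMSO samples. Its level was 0.307, 0.664 and 0.380 CPM with tozasertib, 0.220, 0.194, 0.394 and 0.418 CPM with etoposide and 0.103, 0.106, 0.0622 and 0.235 CPM with DMSO. KIF17 was called higher with both drugs (1.76 ± 0.50, adjusted p = 0.0081, and 1.24 ± 0.49, adjusted p = 0.045, for tozasertib and etoposide), and the etoposide call was lost without any 1 of DMSO replicates 1, 2 and 3, etoposide replicates 3 and 4 and tozasertib replicates 1 and 4. With all samples, it was lost under DESeq2's Wald test (adjusted p = 0.056) and with no filter (0.104). In the main fit KIF17 passed the filter on low counts only through drug-treated samples, so its adjusted p-values there add no separate support. Of the remaining carriers, KIF16B, a motor of early endosomes, had -0.03 ± 0.10 and -0.15 ± 0.09, and the minus-end motor KIFC3 had 0.11 ± 0.08 and 0.17 ± 0.08, for tozasertib and etoposide, without a call in the main fit. Under library size alone, KIFC3 was called higher with tozasertib and with etoposide (adjusted p = 0.036 and 0.016). DESeq2's Wald test called it higher with etoposide (adjusted p = 0.042). KIFC2, also a member of the minus-end kinesin-14 family, was called higher with tozasertib (0.35 ± 0.14, adjusted p = 0.040) and not with etoposide (0.23 ± 0.13, adjusted p = 0.15). The KIFC2 call was lost without any 1 of tozasertib replicates 1 and 2, DMSO replicates 1, 3 and 4 and etoposide replicate 2, and without DMSO samples 1 and 4 together (adjusted p = 0.16).

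The unequal change turned over the makeup of the kinesin transcript pool. Summed over the class, mitotic kinesins held 88.3 ± 12.9 TPM with tozasertib, 133 ± 20.9 TPM with etoposide and 450.0 ± 46.4 TPM with DMSO (SD, n = 3, 4 and 4). Transport kinesins held 527 ± 3.91, 517 ± 19.2 and 406 ± 62.3 TPM in the same order. The mitotic share of all kinesin TPM was 10.7% to 13.8% with tozasertib, 14.4% to 20.5% with etoposide and 45.5% to 49.8% with DMSO, so that no 2 groups overlapped. The ratio of transport to mitotic TPM was 6.07 ± 1.01 with tozasertib, 3.98 ± 0.83 with etoposide and 0.90 ± 0.07 with DMSO, where it was below 1 in all 4 samples. Of single genes, KIFC1 ranked 18 of 42 by TPM with tozasertib, 12 with etoposide and 2 with DMSO, and KIF13A ranked 4, 4 and 14.

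**Figure D4:**
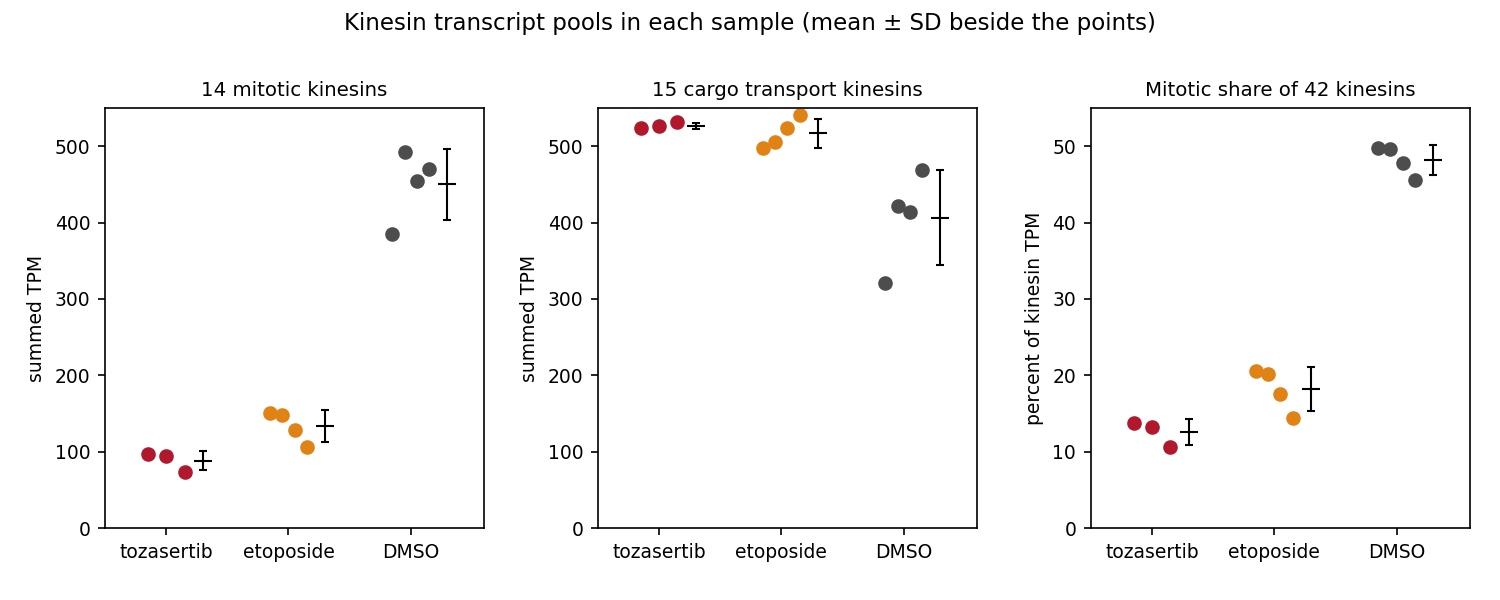
Summed TPM of 14 mitotic and of 15 cargo transport kinesins, and the mitotic percentage of the TPM of 42 kinesins, in each sample (points), with group mean and SD. The mitotic pool is 73.5 to 97.2 TPM with tozasertib, 105 to 150.2 TPM with etoposide and 384 to 492 TPM with DMSO, and the transport pool of DMSO replicate 1 (320.4 TPM) is the lowest of all 11.

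In the ciliary and other class, 10 of 13 members were tested. With tozasertib, 4 were called higher and 2 lower, and with etoposide 2 were higher and 2 lower. KIF26A, among the 4 higher with tozasertib, passed the filter on low counts only through its tozasertib reads. Of all genes, 29.9% were higher and 29.4% lower with tozasertib, and 27.7% higher and 30.7% lower with etoposide, and no departure from these shares was tested. KIF26B, a kinesin without motor ATPase activity that acts in Wnt5a-ROR signalling, stood at 13.3, 13.8 and 14.1 CPM with tozasertib, 15.5, 15.4, 16.9 and 19.7 CPM with etoposide and 2.83, 4.11, 4.76 and 5.28 CPM with DMSO. It rose 3.23-fold with tozasertib (log2 1.69 ± 0.16, adjusted p = 1.0e-06) and 3.96-fold with etoposide (1.98 ± 0.15, adjusted p = 1.2e-07), with no overlap. The extracellular matrix gene LUM, a fibroblast marker, moved with KIF26B, at 98.7 to 104 CPM with tozasertib, 98.5 to 119.6 CPM with etoposide and 21.8 to 24.7 CPM with DMSO. The summed fibroblast list was 118 to 123 CPM, 137 to 153 CPM and 24.3 to 29.2 CPM in the same order, with 3 of its 4 genes tested and DCN, another of its genes, at or near 0 in all samples. The part of such cells in the KIF26B result was not tested. KIF26A, its relative, had 45 reads over the 3 tozasertib samples, 3 over the 4 etoposide samples and 0 over the 4 DMSO samples. Against a floor of 3 reads over the group, KIF26A was at least 14.4-fold higher with tozasertib than with DMSO (adjusted p = 0.00021), and it was 16.5 times as high as with etoposide (95% counting interval 5.28 to 82.8, adjusted p = 0.0050). KIF26A passed the filter on low counts only through its tozasertib reads, so these adjusted p-values add no separate support.

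KIF6, which in mice is needed for the cilia of ependymal cells, rose with tozasertib and not with etoposide, and the difference between the drugs passed the test. It stood at 3.57, 3.53 and 3.33 CPM with tozasertib, 1.12, 1.07, 1.24 and 1.15 CPM with etoposide and 1.10, 1.35, 1.68 and 0.740 CPM with DMSO. KIF6 was 2.84-fold higher with tozasertib than with DMSO (log2 1.51 ± 0.22, adjusted p = 6.4e-05) and 3.03-fold higher than with etoposide (1.60 ± 0.22, adjusted p = 0.00041). KIF27, a relative of the Hedgehog regulator KIF7 that in mice is tied to motile cilia, was called higher with both drugs (0.73 ± 0.16 and 0.58 ± 0.15, adjusted p = 0.0017 and 0.0054, tozasertib and etoposide). The multiciliated cell list summed to 8.89 to 10.4 CPM with tozasertib, 8.07 to 9.96 CPM with etoposide and 1.38 to 2.83 CPM with DMSO, and most of it was DNAH5. The list's defining factor FOXJ1 was at 0 in 9 of 11 samples and at 0.04 and 0.06 CPM in 2 DMSO samples. That list's part in the KIF6 and KIF27 values was not tested. KIF7 itself had 0.23 ± 0.11 with tozasertib and 0.17 ± 0.10 with etoposide, not called in the main fit. It was called higher with etoposide once etoposide replicate 2 was left out (adjusted p = 0.046), and with tozasertib under library size alone (adjusted p = 0.027).

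KIF24 and KIF2A, both microtubule depolymerases, were the lower members of this class. KIF24, which acts at the mother centriole and holds back cilium assembly, stood at 2.71, 1.82 and 2.71 CPM with tozasertib, 2.98, 3.62, 3.57 and 3.21 CPM with etoposide and 7.17, 7.13, 8.68 and 9.89 CPM with DMSO. Its log2 fold change of -1.75 ± 0.17 with tozasertib (adjusted p = 1.6e-06) and -1.30 ± 0.15 with etoposide (adjusted p = 8.1e-06) lay in or near the mitotic range. KIF24 overlaps UBAP1 on the opposite strand, which held 33.1 TPM, against 1.17 TPM for KIF24. KIF2A, a depolymerase of spindle poles and of neurons, held 72.9 to 77.0 CPM with tozasertib, 70.4 to 80.7 CPM with etoposide and 78.1 to 107 CPM with DMSO. KIF2A was called in the main fit (-0.33 ± 0.09 and -0.33 ± 0.08, adjusted p = 0.0062 and 0.0037, tozasertib and etoposide) and was not with length-scaled counts (-0.12 and -0.13, adjusted p = 0.53 and 0.46). KIF9, KIF21A and KIF21B were not called in any comparison of the main fit. With tozasertib, KIF9 was called lower under DESeq2's Wald test and with length-scaled counts (adjusted p = 0.046 and 0.048). KIF21A was called higher with tozasertib under library size alone (adjusted p = 0.047). Without tozasertib replicate 4 or DMSO replicate 4, KIF21A was called higher with tozasertib than with DMSO (adjusted p = 0.020 and 0.048), and without DMSO replicate 2 or 4 KIF9 was called lower (adjusted p = 0.049 and 0.035). KIF12 and KIF19 had 0 reads in every sample, and KIF25 had 3, 6 and 6 reads over the tozasertib, etoposide and DMSO samples.

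Genes whose proteins work with these motors were read from lists of partners. Of 14 mitotic partners, 14 were called lower with tozasertib (median log2 fold change -2.63) and 14 with etoposide (-1.91), and 12 were lower with tozasertib than with etoposide. Of all genes, 29.4%, 30.7% and 5.45% were called lower in these comparisons. PRC1, the midzone crosslinker that works with KIF4A, was 9.01-fold lower with tozasertib and 5.37-fold lower with etoposide. HMMR, a spindle pole protein, was 7.61-fold and 4.81-fold lower, TPX2, which targets Aurora A and KIF11 to the spindle, 4.90-fold and 3.11-fold lower, and RACGAP1, the partner of KIF23 in centralspindlin, 4.53-fold and 3.09-fold lower, with tozasertib and etoposide. CENPE, the kinetochore kinesin outside the symbol rule, moved alike, at -2.22 ± 0.15 with tozasertib and -1.50 ± 0.13 with etoposide (adjusted p = 3.4e-08 and 3.9e-07), whereas STARD9, a centriolar kinesin, was at -0.04 and -0.14 and not called.

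Called members of the cargo adaptors and of the opposing motor were found in both directions. Of 23 tested kinesin adaptors (24 listed), 6 were higher and 8 lower with tozasertib, and 6 were higher and 6 lower with etoposide, while 1 was higher and 1 lower between the drugs. The adaptor shares lie near those of all genes, which were 29.9% higher and 29.4% lower with tozasertib and 27.7% higher and 30.7% lower with etoposide. KIFAP3, the subunit that KIF3A and KIF3B share, fell by 0.48 ± 0.08 on the log2 scale with tozasertib and by 0.68 ± 0.07 with etoposide, while its motors were not called. PLEKHM2 and BORCS5, which link kinesin-1 to lysosomes, were higher at 0.52 and 0.54 with tozasertib and 0.43 and 0.64 with etoposide. MAPK8IP2, a JNK scaffold that binds kinesin light chain, was 2.77-fold higher with tozasertib than with DMSO (adjusted p = 0.00036) and 2.11-fold higher than with etoposide (adjusted p = 0.016). Of 24 dynein and dynactin genes, 4 were higher and 12 lower with tozasertib, and 3 were higher and 11 lower with etoposide, while 1 (DCTN2) was lower with tozasertib than with etoposide. Their counts of lower calls stand against 29.4% of all genes with tozasertib and 30.7% with etoposide, and of higher calls against 29.9% and 27.7%. NDE1, a dynein regulator used in mitosis, was at -1.32 ± 0.08 with tozasertib and -1.22 ± 0.07 with etoposide, and the dynein light chain DYNLT3 was at -1.03 ± 0.05 and -0.99 ± 0.05.

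Shares of single transcripts within a gene were compared for 29 kinesins in 87 two-sided exact permutation tests, and none passed after adjustment (lowest adjusted p = 0.38). With 4 samples against 3, the smallest p possible is 0.057, and with 4 against 4 it is 0.029, so that this design could hardly have called one. The unadjusted p reached 0.029 for KIF2A-220, which held 40.7% ± 1.52 of KIF2A transcripts with etoposide and 50.5% ± 4.68 with DMSO (SD, n = 4 each, exact permutation), and for KIF21A-210, which held 35.2% ± 3.63 of KIF21A with etoposide and 50.1% ± 11.8 with DMSO.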

How the data were processed

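The authors quantified single-end reads against transcripts with Salmon 1.9.0 after cutadapt 4.7, with GRCh38 named as the genome in the submitters' processing notes. The deposited tables give estimated counts, TPM and effective length (other) per transcript and sample. Whether counting used the strand is not given in the sources used here. Of 251645 transcript IDs, 99.83% were found in GENCODE v44, estimated counts were summed to 61566 genes and rounded to whole numbers, and TPM was summed. Reads of unmatched transcripts (0.136% to 0.163%) were left out. Salmon shares reads among near-copies, so that KIF4A and KIF4B are uncertain as a pair.

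Counts were fitted with edgeR 4.0.16 in R 4.3.3 (TMM, filterByExpr, quasi-likelihood test, 1 mean per group over all 11 samples). Standard errors are the absolute log2 fold change divided by the square root of F. A self-test on simulated counts was run first. The members, classes, partner lists and tests were chosen with earlier results of these data known. Every mitotic and transport member is named, as are the others called in any comparison. Values in all samples are given for the 5 mitotic and 5 transport members of smallest adjusted p with each drug, and up to 4 partners are named per direction and list. All sample values of called members of the other class, and any further gene named, were chosen after their values were seen. Intervals on read ratios cover counting error only. Alternatives were DESeq2 1.42.0 and its size factors, library size alone, no filter, fits of 2 groups, length-scaled counts, a replicate block, leaving out each sample, and, chosen after seeing the data, leaving out DMSO samples 1 and 4. Python 3.11.15 with pandas 2.3.3 and scipy 1.17.1 made the summaries.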

Additional observations from a re-analysis of the deposited data

Results flagged for a closer look

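Of 72 groups of 4 samples (36 kinesins with etoposide and with DMSO), 4 held a sample whose gap to the next exceeded Dixon's 95% limit, and chance flags about 1 in 20 groups. DMSO replicate 1 was the lowest for KIF11, at 120.16 CPM against 141.95 to 144.86 CPM in the other 3, and for KIF3A, at 26.764 CPM against 33.457 to 34.167 CPM. It was the highest for KIF9, at 13.934 CPM against 9.8869 to 10.354 CPM. For KIF3A, etoposide replicate 1 was the highest, at 37.145 CPM against 35.935 to 36.112 CPM. DMSO replicate 1 thus accounts for 3 of the 4, and it is also the sample whose deviations from the DMSO mean fell with transcript length.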

How the results depend on the processing

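The 12 of 12 mitotic kinesins called lower with each drug than with DMSO were 12 under every alternative and with each sample left out. Their median log2 fold change ranged from -2.83 to -2.58 with tozasertib and from -2.01 to -1.83 with etoposide when 1 sample was left out. Between the drugs the count (10) ranged from 7 to 11 with 1 sample left out, and from 8 with length-scaled counts to 12 with DESeq2's Wald test, no filter or without DMSO samples 1 and 4. Counts in the transport and other classes moved more. Transport kinesins called higher with etoposide (3) became 5 with DESeq2's Wald test, and ranged from 2 to 4 with 1 sample left out. Those called lower with etoposide (3) ranged from 2 to 6, the 6 without DMSO replicate 1, and were 5 without DMSO samples 1 and 4. Those called higher with tozasertib (5) became 3 with length-scaled counts, and ranged from 3 to 6 with 1 sample left out. Those called higher with tozasertib than with etoposide (0) became 1 with no filter, with only the 2 groups compared and without DMSO samples 1 and 4, and ranged from 0 to 1 with 1 sample left out, the 1 being KIF1A each time. Other kinesins called lower became 1 in place of 2 with length-scaled counts for etoposide and with library size alone for tozasertib, and 1 in place of 0 for tozasertib against etoposide without DMSO samples 1 and 4. Over all genes, tozasertib against etoposide gave 966 higher and 929 lower calls. These were 1785 and 1767 with only the 2 groups, 609 and 522 with length-scaled counts, 1881 and 1914 without DMSO samples 1 and 4, 1551 lower with DESeq2's Wald test, and 565 to 1545 higher and 471 to 1854 lower with 1 sample left out. Counted by reads and not per length, the mitotic share was 9.89% with tozasertib, 14.3% with etoposide and 40.9% with DMSO. With TTTAAA and TTCGAA also taken as CHR, 93.3% of mitotic and 25.1% of all promoters held one. Causes beyond fewer samples, fewer groups or the wider motif were not tested.

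Replicate numbers are shared across groups, and the labels do not say that they pair the samples. Deviations of same-numbered samples correlated at -0.10 to 0.05 between DMSO and either drug. Between etoposide and tozasertib they correlated at 0.23, 0.09 and 0.12, against -0.21 to 0.16 for differently numbered samples. Whether same-numbered samples of the drugs are paired was not tested. With a replicate block, transport kinesins called higher with tozasertib were 3 (KIF5A and KIFC2 lost). The block also lost KIF17 with etoposide (adjusted p = 0.058), and it called KIF1B (0.047) and KIF3B (0.018) with etoposide, KIF7 with tozasertib (0.024) and KIF22 between the drugs (-0.42, adjusted p = 0.0025, or 0.018 with length-scaled counts). With the block and length-scaled counts together, transport kinesins called higher with tozasertib were 3, other kinesins called lower were 1 with etoposide and 1 with tozasertib, and all genes called between the drugs were 506 higher and 440 lower.

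Depth limits KIF17, KIF1A, KIF26A and KIF25, at 51 reads or fewer per group, and the 3 tozasertib samples limit every comparison between the drugs.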
